A study of Rattus norvegicus with 28 samples.

Results

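The genes described here are the nuclear-encoded genes of respiratory complexes II to V and of cytochrome c, the electron carrier between complexes III and IV, in cultured adult rat heart muscle cells with and without knockdown of desmin. They were chosen from the RNA table by gene symbol and position: every gene outside the mitochondrial genome whose symbol begins with Sdha, Sdhb, Sdhc, Sdhd, Sdhaf, Uqcr, Uqcc, Cox4 to Cox8 or Atp5, plus Cyc1 and Cycs. That rule used no measured value and took 50 of the 11383 genes in the table, under 49 symbols, because Cox6b1 is listed at 2 loci. It missed genes of the same complexes that the table lists under other names.

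The respiratory chain of the inner mitochondrial membrane passes electrons from NADH and succinate to oxygen and uses the energy to pump protons, which the ATP synthase, complex V, lets back to make ATP. Complex II is built only from nuclear genes, whereas complexes III, IV and V each combine nuclear subunits with a few made inside the mitochondrion, so their supply draws on both genomes. Heart muscle, which works without pause, is among the tissues richest in these complexes, and it uses muscle forms of some complex IV subunits in place of the forms found in most tissues. Desmin is the intermediate filament protein of muscle, which links sarcomeres to each other, to mitochondria and to the nucleus.

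The study measured RNA by sequencing, in 75 bp single-end reads, and the genome's contacts with the nuclear lamina by chromatin immunoprecipitation of Lamin B. All cells were cardiomyocytes isolated from hearts of adult rats, 6 to 8 months old, and kept in culture for 48 hours. For RNA, 3 libraries came from cells given a null adenovirus (no hairpin is named for it) and 3 from cells given an adenovirus carrying a short hairpin RNA against desmin (shDesmin), so both groups carried adenovirus and the RNA controls differed from the scrambled-hairpin controls of the lamina experiment. The labels do not say whether the RNA replicates were separate animals or cultures, so p-values measure the spread between these libraries, which may be technical, and strain and sex are not given in the sources used here.

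Each library held between 8724543 and 10908458 reads on listed genes. Desmin itself, Des, fell from 12.57, 12.54 and 12.60 log2 CPM (the base-2 logarithm of the reads on a gene relative to its library, as scaled between libraries by the authors) in the null libraries to 9.10, 9.13 and 9.32 in the shDesmin libraries, which was 10.5-fold lower (log2 fold change -3.39, SE 0.10). Of 10 listed cardiomyocyte markers 9 were in the table (Myh6, Myh7, Actc1, Tnnt2 and others), at a summed level of 23200 to 28450 CPM in the null and 75130 to 88070 CPM in the shDesmin libraries. Markers of other cell types were scarce beside them. The 7 endothelial markers in the table summed to 133 to 218 CPM in the null and 249 to 369 CPM in the shDesmin libraries (3 called higher, 1 lower), and the 7 of smooth muscle and pericytes to 277 to 433 and 535 to 882 CPM (5 higher, 1 lower). The 3 fibroblast markers summed to 2.83 to 9.67 and 15.2 to 24.5 CPM (3 higher), and the 3 macrophage markers to at most 17.7 CPM in the null and 4.99 CPM in the shDesmin libraries (2 tested, 1 lower). None of these markers was at 0 reads in any library, and no adipocyte or erythroid marker was in the table. The mitochondrial genome supplied 24.7%, 30.6% and 34.5% of reads in null replicates 1 to 3 and 35.0%, 39.1% and 39.0% in the shDesmin replicates.

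Of the 50 genes, 46 were called higher and 1 lower in the shDesmin libraries at a Benjamini-Hochberg adjusted p below 0.05 (limma), and 3 were not called. Over all 11033 genes tested, 27.5% were called higher and 31.4% lower. Abundant genes were called higher more often than scarce ones: among the 1771 genes at a mean of 6 log2 CPM or more, a level that 43 of the 50 reached, 55.5% were called higher and 16.7% lower. The median log2 fold change of the 50 genes was 1.06, beside -0.04 over all genes tested and 0.35 over the abundant ones. At least 2-fold higher and called were 32 of the 50, beside 10.6% of all genes tested. All 3 shDesmin libraries lay above all 3 null libraries for 46 of the 50, beside 29.8% of all genes tested and 58.3% of the abundant ones. In either direction, the groups did not overlap for 47 of the 50, beside 64.9% and 76.4%. Cycs rose most, by 1.71 on the log2 scale, and Cox6a1 was the single gene that fell, by 0.51.

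**Figure D1:**
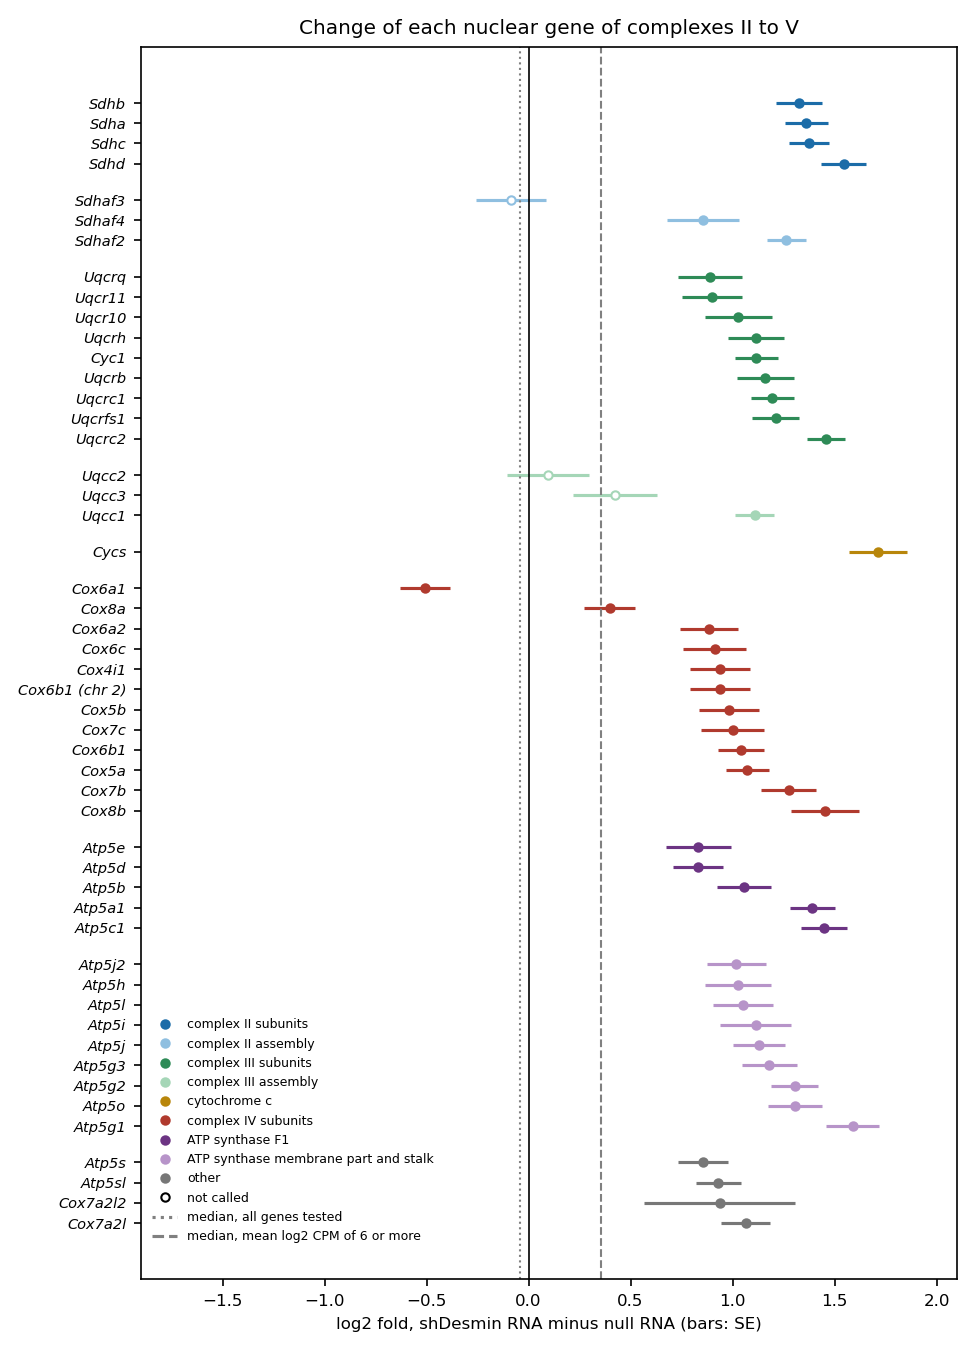
Log2 fold change, shDesmin RNA minus null RNA (3 libraries each, bars are standard errors), of each of the 50 genes on the deposited scaling, grouped by complex and role; filled points passed an adjusted p below 0.05. The points lie around the median of 1.06, to the right of the medians of all genes tested (-0.04) and of abundant genes (0.35), except for Cox6a1 at -0.51, the open points of Sdhaf3, Uqcc2 and Uqcc3, and Cox8a at 0.40.

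These values rest on the scaling between libraries, and the choice of scaling changed them. The authors' scale factors multiply the read total of each library to give its effective size. They were recovered here from the deposited values, which fix only their ratios between libraries. With their geometric mean set to 1, they were 1.42, 1.27 and 1.17 in the null and 0.834, 0.732 and 0.783 in the shDesmin libraries. Scaling by read totals in their place shifted every log2 fold change by the same amount, so that the median over all genes became -0.75 and that of the 50 genes 0.35, a distance of 1.10 on both scales. The median of the abundant genes became -0.36, a distance of 0.71 from that of the 50 genes on both scales. Then 33 of the 50 were called higher and 4 lower, beside 7.27% and 62.5% of all genes tested. Quantile normalization, which gives every library the same distribution of values, left a median of 0.45 for the 50 genes, 0.00 for all genes tested and 0.04 for the abundant ones. It called 32 of the 50 higher and 1 lower, beside 28.2% and 28.9% of all genes tested. Under all 3 scalings 26 of the 50 were called higher, among them all 4 complex II subunits and Cycs, and Cox6a1 was called lower under each.

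**Figure D2:**
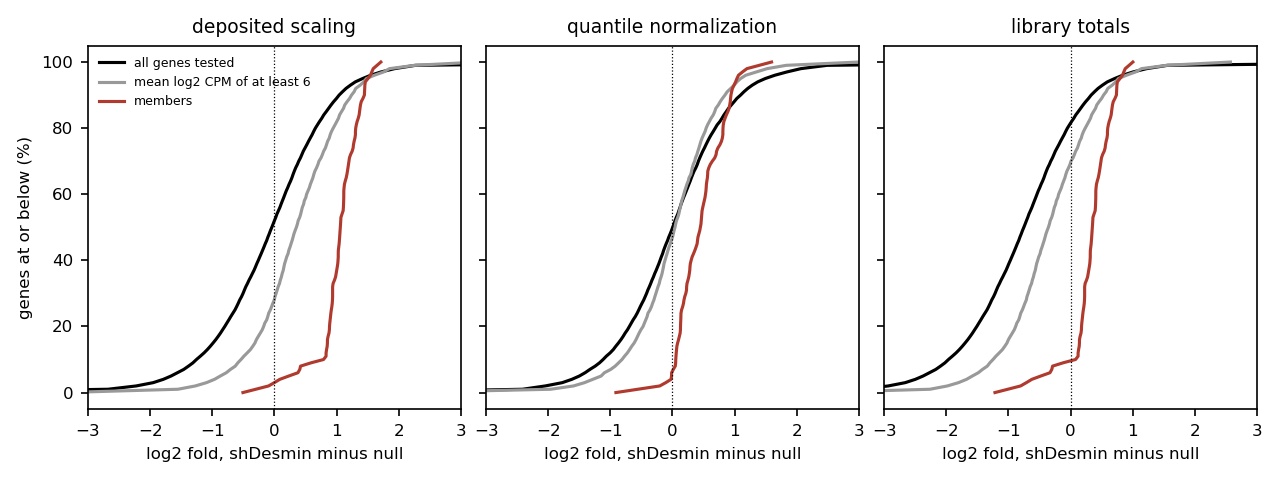
Cumulative percent of genes (vertical axis) at or below each log2 fold change, shDesmin minus null (horizontal axis), for all genes tested (black), genes with a mean of 6 log2 CPM or more (grey) and the 50 respiratory genes (red), under the deposited scaling, quantile normalization and library totals. The red curve lies to the right of the black curve over most of each panel, with medians of 1.06, 0.45 and 0.35, and crosses to its left near the top, from percentile 96 under the deposited scaling and library totals and from percentile 87 under quantile normalization, while the black median moves from -0.04 to 0.00 and -0.75.

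A share of reads is taken within each library. It does not use the authors' scale factors, but dividing by a total is itself scaling by library totals. The 50 genes held 4.47%, 5.00% and 5.38% of the reads on nuclear genes in null replicates 1 to 3 and 7.19%, 7.73% and 7.21% in the shDesmin replicates. Each shDesmin library lay above each null library, with or without the mitochondrial genome in the total (3.37% to 3.52% of all reads in the null and 4.40% to 4.71% in the shDesmin libraries). The summed cardiomyocyte markers moved the same way, with 9 of 9 called higher and a median log2 fold change of 1.80, and neither their part in the result nor that of the other cell types' markers given above was tested. In bulk RNA, a change in the number of cells of a type and a change in RNA per cell cannot be told apart.

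Stretches of promoter are shown for 6 of the genes described below, and a link between promoter letters and the changes in RNA was not tested. They come from RefSeq's assembly GRCr8 and are 120 bases long, 5′ to 3′ on the strand of the gene, and end at the base before the annotated start except for Cycs, whose stretch runs from 160 to 41 bases before it. Capitals mark matches, on either strand, to letters recognised by regulators that textbooks tie to respiratory genes: GCGCANGCG for NRF1, CCGGAAG for ETS factors such as GABP, TCAAGGTCA for the estrogen-related receptors (ERR) and GGGCGG for SP1. Cycs (chr4:80984808-80984927, minus strand) and Sdha (chr1:30764433-30764552, plus strand) show NRF1 matches. Atp5g3 (chr3:79220665-79220784, minus strand) shows an ERR match. Cox8a (chr1:213833624-213833743, minus strand) and Cox8b (chr1:205408274-205408393, minus strand) are the common and the muscle form of one complex IV subunit, with ETS and SP1 matches respectively. Cox6a2 (chr1:192219717-192219836, minus strand), another muscle form, holds none of these letters in its stretch.
Cycs: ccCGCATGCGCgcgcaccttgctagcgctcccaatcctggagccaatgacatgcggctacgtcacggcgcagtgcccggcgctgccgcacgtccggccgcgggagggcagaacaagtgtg
Sdha: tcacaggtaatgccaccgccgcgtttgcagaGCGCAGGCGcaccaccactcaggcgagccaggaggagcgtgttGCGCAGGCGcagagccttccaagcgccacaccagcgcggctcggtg
Atp5g3: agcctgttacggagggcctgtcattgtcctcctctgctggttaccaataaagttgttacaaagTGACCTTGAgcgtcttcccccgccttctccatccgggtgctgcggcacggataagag
Cox8a: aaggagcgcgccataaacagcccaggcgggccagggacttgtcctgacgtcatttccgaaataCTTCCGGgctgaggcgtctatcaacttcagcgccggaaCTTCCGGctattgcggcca
Cox8b: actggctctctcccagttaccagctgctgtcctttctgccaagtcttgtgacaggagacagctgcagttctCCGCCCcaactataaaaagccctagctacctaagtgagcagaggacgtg
Cox6a2: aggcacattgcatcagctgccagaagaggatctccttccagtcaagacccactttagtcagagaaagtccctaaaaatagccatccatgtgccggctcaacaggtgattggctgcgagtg

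Over the whole RefSeq windows, from 250 bases before to 50 after the start, 42 of the 50 genes had a promoter, of 41 distinct RefSeq genes. The NRF1 letters were in 34.1% of the 41, beside 14.5% of 8584 promoters of tested genes and 6.26% of all 27457. The ETS letters were in 39.0%, beside 19.3% of tested genes. The ERR letters were in 4.88%, which is 2 promoters, beside 0.245% of tested genes. The YY1 letters AAGATGGCG were in 4.88% beside 4.11%, and the SP1 letters in 43.9% beside 64.3%. Median GC content was 57.7% in the 41 promoters and 61.3% in those of tested genes, and all these shares are descriptions of letters in a window, not of binding.

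Complex II, succinate dehydrogenase, feeds electrons from the citric acid cycle into the chain. All 4 of its subunit genes rose, between 1.33 and 1.54 on the log2 scale, with a median of 1.37. Sdha, the flavoprotein that oxidises succinate (ENSRNOG00000013331, rn6 chr1:31545631-31570601), read 9.45, 9.13 and 9.20 log2 CPM in null replicates 1 to 3 and 10.64, 10.67 and 10.56 in the shDesmin replicates (log2 fold change 1.36, SE 0.11, adjusted p = 1.5e-06). The iron-sulfur subunit Sdhb (ENSRNOG00000007967, chr5:159484370-159505064) read 8.64, 8.79 and 8.99 against 10.004, 10.28 and 10.10 log2 CPM, a log2 fold change of 1.33 (SE 0.11). The shDesmin libraries lay above the null libraries by more than the whole range within either group.

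The membrane anchors Sdhc and Sdhd hold the catalytic pair in the inner membrane and bind ubiquinone. Sdhc (ENSRNOG00000003163, chr13:89498048-89518939) read 7.75, 7.87 and 7.93 in the null and 9.10, 9.35 and 9.21 log2 CPM in the shDesmin libraries (log2 fold change 1.38, SE 0.10). Sdhd (ENSRNOG00000022980, chr8:55028125-55037604) read 7.66, 7.82 and 7.92 against 9.19, 9.54 and 9.29 (log2 fold change 1.54, SE 0.11, adjusted p = 9.3e-07). The groups did not overlap for either anchor. All 4 subunits were also called higher under library totals, at a median of 0.66, and under quantile normalization, at 0.65.

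Of the 3 complex II assembly factors, 2 rose and 1 did not pass the test. Sdhaf2, which inserts FAD into Sdha (ENSRNOG00000020646, chr1:226547531-226572349), read 6.05, 5.98 and 6.09 in the null and 7.30, 7.44 and 7.18 log2 CPM in the shDesmin libraries (log2 fold change 1.26, SE 0.10, adjusted p = 1.4e-06). Sdhaf4, a chaperone of the flavoprotein, rose by 0.85 (SE 0.18, adjusted p = 0.0015; 0.14 and not called under library totals) at 127 to 202 reads a library. Sdhaf3, which helps to mature the iron-sulfur subunit (ENSRNOG00000011283, chr4:32495321-32558798), read 3.21, 3.50 and 3.12 against 3.197, 3.31 and 3.07 log2 CPM, and its groups overlapped (log2 fold change -0.09, SE 0.17, adjusted p = 0.69). With 64 to 125 reads a library, the 95% interval of its log2 fold change ran from -0.46 to 0.29. Library totals called it lower at -0.80, beside a median of -0.75 over all genes tested.

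Complex III, the cytochrome bc1 complex, hands electrons from ubiquinol to cytochrome c. All 9 of its nuclear subunit genes rose, between 0.89 and 1.46, with a median of 1.12. The core subunit Uqcrc2 (ENSRNOG00000036742, chr1:190555177-190585734) had the largest change of the 9 (log2 fold change 1.46, SE 0.09, adjusted p = 4.5e-07), from 9.43, 9.30 and 9.37 log2 CPM in the null to 10.79, 10.92 and 10.77 in the shDesmin libraries. Cytochrome c1, Cyc1, which passes the electron on (ENSRNOG00000012457, chr7:117409576-117411953), read 9.74, 9.87 and 9.97 against 10.91, 11.08 and 10.94 (log2 fold change 1.12, SE 0.10). The Rieske iron-sulfur protein Uqcrfs1 rose by 1.21 and the other core subunit, Uqcrc1, by 1.20.

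The small subunit Uqcrq (ENSRNOG00000048174, chr10:38779132-38782419) changed least of the 9, from 8.58, 9.06 and 9.28 log2 CPM to 9.82, 10.04 and 9.73 (log2 fold change 0.89, SE 0.16, adjusted p = 0.00056). Its lowest shDesmin library stood above its highest null library, but null replicate 1 stood well below the other 2 null libraries. Among the small subunits, Uqcr11 rose by 0.90, Uqcr10 by 1.03, Uqcrb by 1.16 and the hinge protein Uqcrh by 1.12. Library totals kept 7 of the 9 calls and quantile normalization 6, and Uqcrq and Uqcr11 were called under neither.

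Uqcc1, Uqcc2 and Uqcc3 assist the synthesis and assembly of cytochrome b, the subunit of complex III that is made in the mitochondrion. Uqcc1 (ENSRNOG00000048309, chr3:151384954-151474135) rose from 5.79, 5.71 and 5.92 to 6.84, 6.97 and 6.93 log2 CPM (log2 fold change 1.11, SE 0.10, adjusted p = 3.3e-06). Uqcc2 (ENSRNOG00000025909, chr20:5712203-5723737) read 4.53, 5.17 and 5.41 in the null and 5.09, 5.37 and 4.94 in the shDesmin libraries (log2 fold change 0.09, SE 0.20, adjusted p = 0.70; -0.62 and called lower under library totals). Uqcc3 (ENSRNOG00000045561, chr1:225076301-225077079) read 3.08, 3.47 and 3.90 against 3.66, 4.02 and 4.04 (log2 fold change 0.42, SE 0.21, adjusted p = 0.097; -0.29, not called, under library totals). Under library totals the median over all genes tested was -0.75. Quantile normalization (0.62) and a fit with the replicate number as a block (adjusted p = 0.038, limma) called Uqcc3 higher. The null libraries of Uqcc2 and Uqcc3 were spread more widely than their shDesmin libraries, and the groups overlapped for both. On the deposited scaling the median log2 fold change of all 6 assembly factors of the set was 0.64, beside 1.12 over the 40 structural subunits and Cycs, but quantile normalization reversed that order, at 0.78 beside 0.38. The assembly factors were also scarcer, at a mean of 3.28 to 6.04 log2 CPM in the null libraries.

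Cycs, somatic cytochrome c, carries electrons to complex IV and, once released into the cytosol, triggers apoptosis. It showed the largest log2 fold change of the 50 under each of the 3 scalings. Its level (ENSRNOG00000010452, chr4:80331227-80333326) was 5.19, 4.98 and 5.52 log2 CPM in the null and 6.87, 7.14 and 6.81 in the shDesmin libraries, 3.28-fold higher (log2 fold change 1.71, SE 0.14, adjusted p = 2.3e-06). All 3 shDesmin libraries stood above all 3 null libraries by more than the spread of either group. The log2 fold change was 1.00 under library totals and 1.59 under quantile normalization. Among genes ordered by level, Cycs moved from rank 2985 in the null to rank 986 in the shDesmin libraries.

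Complex IV, cytochrome c oxidase, reduces oxygen to water, and its nuclear subunits surround a core of mitochondrially encoded ones. Of its 12 entries in the set, which count Cox6b1 at both of its loci, 11 rose and 1 fell. The range, from -0.51 to 1.45, was wider than in any other class. Cox4i1, a regulatory subunit, rose by 0.94 (SE 0.15), Cox5a by 1.07, Cox5b by 0.98, Cox6c by 0.91, Cox7b by 1.28 and Cox7c by 1.00. Cox6b1, which bridges the monomers of the dimeric enzyme, rose by 1.04 at its 8885-bp locus on chromosome 1 and by 0.94 at a 261-bp locus on chromosome 2. How the counting divided reads between these copies is not given in the sources used here, so neither value is certain for its locus. Library totals left 6 of the 12 called higher and quantile normalization 5.

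The gene that fell was Cox6a1, the form of subunit 6a found in most tissues. Cox6a1 (ENSRNOG00000001170, chr12:47024442-47027495) read 7.73, 8.19 and 8.15 log2 CPM in the null and 7.52, 7.60 and 7.44 in the shDesmin libraries (log2 fold change -0.51, SE 0.12, adjusted p = 0.0041). Each shDesmin library lay below each null library, and the log2 fold change was -1.22 under library totals and -0.91 under quantile normalization. Its heart and muscle counterpart Cox6a2 (ENSRNOG00000019851, chr1:199624037-199624783), whose promoter stretch is shown above, read 10.25, 10.58 and 10.79 against 11.37, 11.58 and 11.32. Cox6a2 rose by 0.88 (SE 0.14, adjusted p = 0.00029) on the deposited scaling, with 0.17 under library totals and -0.01 under quantile normalization, neither called.

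A ratio of reads on 2 genes within a library does not depend on scaling by totals. The log2 ratio of Cox6a2 to Cox6a1 was 2.52, 2.39 and 2.64 in null replicates 1 to 3 and 3.86, 3.99 and 3.88 in the shDesmin replicates, so the ratio was 2.62-fold higher (difference 1.39, SE 0.08). The groups stood far apart beside their spread, and the exact two-sided permutation test gave p = 0.1, the smallest that 3 against 3 libraries allow. Reads are not per length here, so the ratio compares libraries and not the amounts of both transcripts. Quantile normalization, which changes ratios within a library, gave a difference of 0.90.

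Subunit 8 showed the same order of its muscle and common forms. Cox8b, the heart and muscle form (ENSRNOG00000014656, chr1:213648787-213650247), rose from 8.72, 9.19 and 9.46 to 10.51, 10.77 and 10.45 log2 CPM (log2 fold change 1.45, SE 0.16, adjusted p = 2.3e-05), the largest change in complex IV. Cox8a, the common form (ENSRNOG00000021177, chr1:222466575-222468896), read 6.24, 6.53 and 6.55 against 6.62, 7.003 and 6.89 (log2 fold change 0.40, SE 0.12, adjusted p = 0.016). It was called lower, at -0.31, under library totals, where the median over all genes tested was -0.75. The lowest shDesmin library of Cox8a stood just above its highest null library, and the call of Cox8a was lost without shDesmin replicate 2 (0.31, adjusted p = 0.071) or replicate 3 (0.37, adjusted p = 0.056). The log2 ratio of Cox8b to Cox8a was 2.48, 2.66 and 2.90 in the null and 3.89, 3.76 and 3.56 in the shDesmin libraries, 2.08-fold higher (difference 1.06, SE 0.16, exact two-sided permutation p = 0.1). Under quantile normalization that difference was 0.38.

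**Figure D3:**
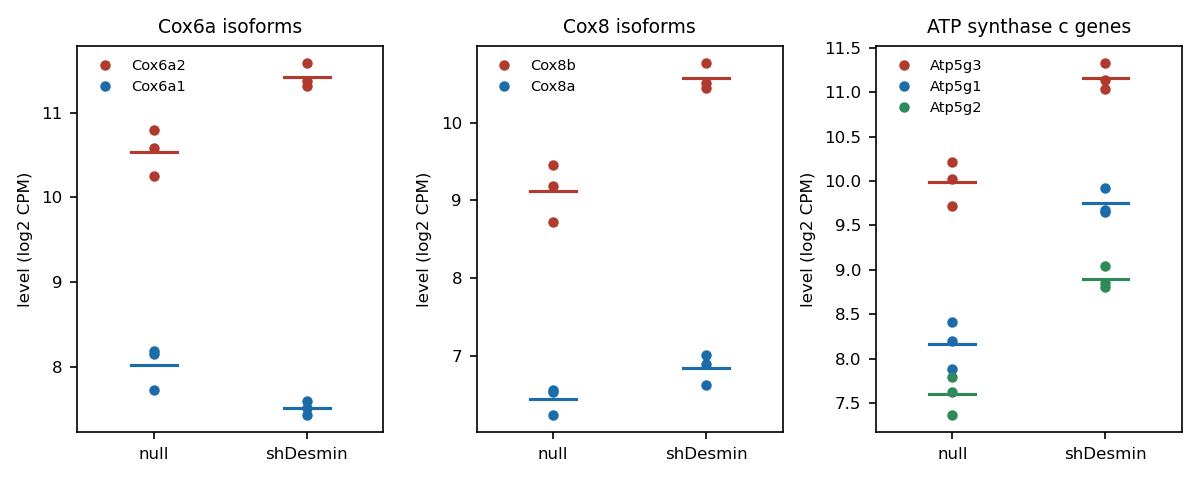
Level in log2 CPM, not per length, of the alternative genes of complex IV subunits 6a and 8 and of the ATP synthase c subunit in each null and shDesmin library (points) with group means (lines). Cox6a2 and Cox8b lie higher in the shDesmin libraries while Cox6a1 lies lower and Cox8a 0.40 higher on the deposited scaling (lower by library totals), and the 3 c genes move up together, Atp5g1 by 1.59 and Atp5g3 by 1.18.

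Complex V, the ATP synthase, couples the proton flow through its membrane part to ATP formation in the F1 head. All 5 F1 genes rose on the deposited scaling, with a median of 1.06. The gamma subunit Atp5c1, the rotating shaft (ENSRNOG00000019223, chr17:72209373-72394271), had the largest change, from 9.25, 9.41 and 9.55 to 10.74, 11.01 and 10.80 log2 CPM (log2 fold change 1.45, SE 0.11, adjusted p = 1.6e-06). The catalytic beta subunit Atp5b rose by 1.06 on the deposited scaling and was at -0.19, not called, under quantile normalization. Atp5a1, the alpha subunit, rose by 1.39 (SE 0.11) on the deposited scaling and was at 0.17, not called, under quantile normalization. Of the 5 F1 genes, 3 were called higher under library totals and 1, Atp5c1, under quantile normalization, where their median was 0.05. Atp5b had the highest level in CPM of the 50 genes, at rank 14 among all genes in the null libraries and rank 17 in the shDesmin libraries.

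The epsilon subunit Atp5e (ENSRNOG00000049912, chr3:172563105-172566010) changed least in the head, from 8.35, 8.85 and 9.06 to 9.56, 9.75 and 9.44 log2 CPM (log2 fold change 0.83, SE 0.16, adjusted p = 0.00094). Atp5d, the delta subunit of the central stalk, also rose by 0.83 on the deposited scaling and was at -0.02 under quantile normalization. Neither was called under library totals, both at 0.12. The shDesmin libraries of Atp5e stood above its null libraries, of which replicate 1 was the lowest.

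The 9 genes of the membrane part and the peripheral stalk all rose, between 1.02 and 1.59, with a median of 1.13, and all 9 were also called higher under library totals. Quantile normalization called 7 of the 9 higher, without Atp5h (0.23) and Atp5l (0.28). Of these, 3 encode the identical mature c subunit of the proton-driven ring, with different targeting sequences. Atp5g1 (ENSRNOG00000007235, chr10:83895947-83898527) read 7.88, 8.20 and 8.41 against 9.65, 9.92 and 9.68 log2 CPM, 3.01-fold higher (log2 fold change 1.59, SE 0.13, adjusted p = 2.4e-06). Atp5g2 (ENSRNOG00000015320, chr7:144264199-144272578) read 7.37, 7.63 and 7.80 against 8.81, 9.04 and 8.85 (log2 fold change 1.30, SE 0.12). Atp5g3 (ENSRNOG00000001596, chr3:60811210-60813869), with the ERR letters in its stretch above, read 9.72, 10.02 and 10.22 against 11.03, 11.33 and 11.14 (log2 fold change 1.18, SE 0.14).

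The log2 ratio of Atp5g1 to Atp5g3 was tight in both groups, at -1.84, -1.82 and -1.81 in the null and -1.38, -1.41 and -1.46 in the shDesmin libraries (difference 0.41, SE 0.02, exact two-sided permutation p = 0.1). That of Atp5g2 to Atp5g3 differed by 0.12 (SE 0.03, exact two-sided permutation p = 0.1), and the groups overlapped in neither ratio. Quantile normalization gave differences of 0.60 and 0.51. Over the 4 pairs of alternative genes computed, of 7 listed, each adjusted p was 0.1. Of the remaining genes, Atp5o, the OSCP subunit that ties the stalk to the head, rose by 1.30, and Atp5h, Atp5i, Atp5j and Atp5l by 1.03 to 1.13. Atp5j2, the f subunit (ENSRNOG00000027049, chr12:11191812-11198369), changed least, from 7.48, 7.96 and 8.07 to 8.76, 9.04 and 8.77 log2 CPM (log2 fold change 1.02, SE 0.14, adjusted p = 0.00012).

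The remaining 4 genes that the symbols bring in were kept apart from the structural subunits. Cox7a2l, which joins complexes III and IV in supercomplexes (ENSRNOG00000004526, chr6:6695827-6709783), rose from 6.84, 7.07 and 7.21 to 7.94, 8.29 and 8.10 log2 CPM (log2 fold change 1.06, SE 0.12, adjusted p = 2.1e-05). Atp5s (ENSRNOG00000004893, chr6:92057807-92076021), now named Dmac2l, read 4.37, 4.26 and 4.50 against 5.16, 5.38 and 5.14 (log2 fold change 0.85, SE 0.12, adjusted p = 0.00013), and Atp5sl rose by 0.93. Neither was called under library totals. RefSeq lists Cox7a2l2 under the same gene ID as Cox7a2, the common form of a complex IV subunit, but it was left out of the complex IV counts here. Cox7a2l2 had 12 to 24 reads a library and a log2 fold change of 0.94 (SE 0.37, adjusted p = 0.046) that was not called in the authors' deposited table. Leaving out any 1 library other than shDesmin replicate 3 also ended that call, with adjusted p from 0.052 to 0.18 for Cox7a2l2.

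The libraries within a group differed in a way that most of these genes shared. Null replicate 1 was the lowest of the null libraries for 40 of the 50 genes, beside 40.4% of all genes tested, and null replicate 3 the highest for 44, beside 31.5%. In the shDesmin group, replicate 2 was the highest for 48 of the 50, beside 35.1%. Across the 50 genes, the deviation of null replicate 1 from the mean of the other null libraries had a Pearson correlation of 0.524 and a Spearman correlation of 0.526 with the log of the gene's length on the genome, so that longer genes tended to dip less there. There were exceptions both ways: the longest, Atp5c1, deviated by -0.23 and the short Cycs by -0.06. This is a description over genes that share the same libraries, and the share of mitochondrial reads was also lowest, at 24.7%, in null replicate 1. Without null replicate 1 the median log2 fold change of the 50 genes was 0.94 and 45 of the 50 were called higher.

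**Figure D4:**
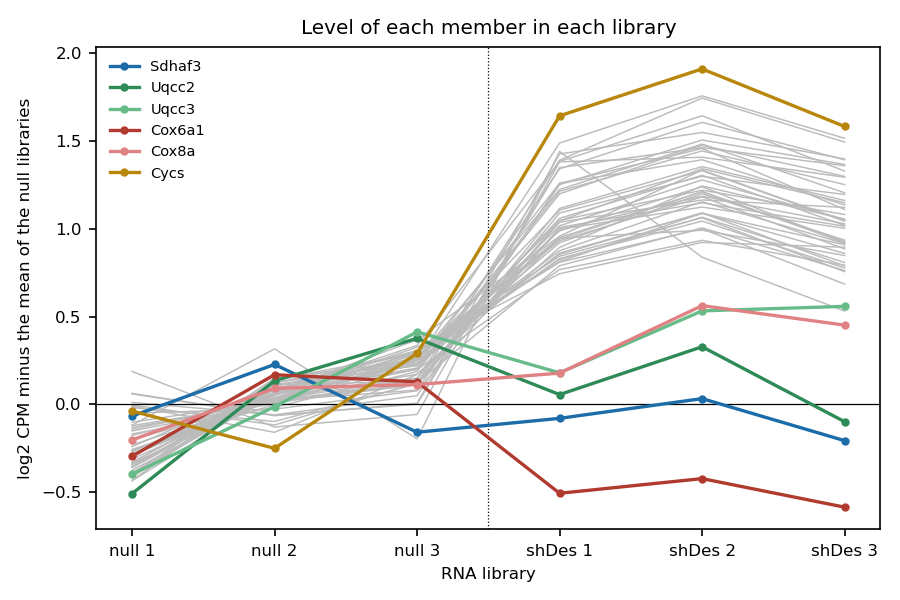
Level of each of the 50 genes in each RNA library, as log2 CPM on the deposited scaling minus the mean of the gene's null libraries; lines join the values of one gene and replicates have no order. Most lines dip in null replicate 1 and peak in shDesmin replicate 2, Cycs ends highest, and Cox6a1 lies below 0 in all 3 shDesmin libraries. Sdhaf3 (log2 fold change -0.09) and Uqcc2 (0.09) stay near their null values, and Uqcc3 (0.42) and Cox8a (0.40) rise less than most lines. Library totals called Sdhaf3, Uqcc2 and Cox8a lower.

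The partners that the mitochondrial genome contributes to complexes III to V moved the same way on the deposited scaling. All 6 (Mt-cyb, Mt-co1, Mt-co2, Mt-cox3, Mt-atp6 and Mt-atp8) were called higher, beside 27.5% of all genes tested and 55.5% of the abundant ones. The median log2 fold change of the 6 was 1.07, beside 1.12 for the nuclear subunits and Cycs. Mt-cyb, cytochrome b of complex III, read 13.89, 14.38 and 14.76 in the null and 15.24, 15.63 and 15.62 log2 CPM in the shDesmin libraries (log2 fold change 1.15, SE 0.25, adjusted p = 0.0019). Mt-atp8 rose by 1.19 and Mt-cox3 by 1.07. All shDesmin libraries lay above all null libraries for each of the 6, beside 29.8% of all genes tested and 58.3% of the abundant ones. Under library totals the median of the 6 was 0.36, beside -0.75 over all genes tested. Under quantile normalization 1 of the 6 was called higher and 1 lower, beside 28.2% and 28.9% of all genes tested. That scaling gives each rank the same value in every library. It therefore cannot show a change in genes that keep their rank at the top, and Mt-co1 and Mt-atp6 did not change under it.

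Complex I, which takes electrons from NADH, had 35 of 38 listed subunit genes in the table, and all 35 were called higher on the deposited scaling with a median of 1.08. Library totals left 25 of the 35 called higher, at a median of 0.37, and quantile normalization 27, at a median of 0.56, with none called lower under either. Over all genes tested, 27.5% were called higher on the deposited scaling, 7.27% under library totals and 28.2% under quantile normalization. Among the abundant genes, the deposited scaling called 55.5% higher. Ndufs1 rose by 1.498, Ndufv2 by 1.46 and Ndufa10 by 1.12. The difference between complex I and complexes II to V was not tested.

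Assembly factors of complexes III to V that carry other symbols varied more. Of 28 in the table, out of 33 listed, 19 were called higher and 3 lower, with a median of 0.60. Over all genes tested, 27.5% were called higher and 31.4% lower. Library totals moved the median of the 28 to -0.11, with 5 higher and 10 lower. Over all genes tested, library totals gave a median of -0.75, with 7.27% higher and 62.5% lower. Oxa1l, which inserts proteins into the inner membrane, rose by 1.36, Coa5 by 1.17, and Tmem70, which assists ATP synthase assembly, by 1.12. Coa4 fell by 1.21 (SE 0.22, adjusted p = 0.00063), from 3.36, 3.55 and 3.86 to 2.02, 2.70 and 2.43 log2 CPM. Cox19, a copper-handling factor of complex IV, fell by 0.58 and Coa7 by 0.47, the latter at an adjusted p of 0.039. For Coa4 every shDesmin library lay below every null library.

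The inhibitor of the ATP synthase did not pass the test on the deposited scaling. Atpif1, which blocks ATP hydrolysis by the enzyme when the proton gradient fails, read 7.98, 8.68 and 8.62 in the null and 8.43, 8.68 and 8.31 log2 CPM in the shDesmin libraries (log2 fold change 0.05, SE 0.17, adjusted p = 0.82, 95% interval -0.32 to 0.42). Its groups overlapped, and it was called lower under library totals (-0.66) and quantile normalization (-0.54). The medians over all genes tested were -0.75 and 0.00 under those scalings. Usmg5, listed under the name of a small membrane subunit of the synthase, rose by 0.88. Its locus spans 308 bp, and whether that is the full gene or a copy of it was not tested. With Atp5s, kept apart from the structural subunits above, 2 of the 3 listed genes in the table were called higher. Over all genes tested, 27.5% were called higher.

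Coenzyme Q is the lipid that carries electrons from complexes I and II to complex III. Of the 13 genes of its synthesis that were listed, under 15 symbols, all were in the table: 9 were called higher and 1 lower. Over all genes tested, 27.5% were called higher and 31.4% lower. The median of the 13 genes, 0.78, became 0.06 under library totals, beside -0.75 over all genes tested. Coq9, which presents the lipid to Coq7, rose by 1.45 (SE 0.09, adjusted p = 3.6e-07), Coq7 by 1.29 and Coq2, the prenyltransferase, by 0.93. Adck4, also known as Coq8b, fell by 0.96 (SE 0.12, adjusted p = 5.2e-05), from 4.92, 5.10 and 5.05 to 4.19, 3.99 and 3.99 log2 CPM. The 5 supercomplex and complex IV accessory genes in the table, of 7 listed, were all called higher on the deposited scaling, with a median of 0.91. Library totals left 2 of the 5 called, at a median of 0.20, and quantile normalization 3. Those scalings called 7.27% and 28.2% of all genes tested higher. The 5 include Ndufa4, also listed with complex I, which rose by 1.03, Higd1a, which rose by 0.91, and Cox7a2l of the 50.

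The lamina experiment gave positions but no second readout of these genes. In the authors' list of 1883 lamina-associated domains of control cells, on rn6, 1 of the 50 genes lay inside: Cox7c, entirely. That is 2% of the genes, beside 4.1% of the 11355 genes on chromosomes with domains and 1.31% of the abundant ones. The median distance to the nearest domain was 692 kb for the 50 genes and 820 kb for all genes, and the nearest outside a domain was Uqcrfs1, at 24.2 kb. Cox7c (ENSRNOG00000030237, chr2:14699882-14701903) read 9.16, 9.59 and 9.81 log2 CPM in the null and 10.45, 10.70 and 10.40 in the shDesmin libraries. No domains of shDesmin cells were analysed here.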

How the data were processed

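RNA of 6 libraries and Lamin B immunoprecipitation of 22 libraries (inputs included) make up the 28 samples. Tools listed in the submitters' processing notes include STAR 2.6.0c, Trimmomatic 0.32, limma, edgeR and featureCounts, and the builds rn6 and hg19, with no role given. Gene positions are those of the deposited table, read as rn6. The deposited RNA values are log2 expression per gene. They are log2 of whole reads plus 0.5 times a constant per library: whole reads came out for 100% of values, within 0.001. Here 5.70353 was subtracted from all values, so that they read as log2 CPM. That constant sets the geometric mean of the libraries' scale factors to 1. The authors' deposited table of comparisons gives a signed fold (a score that is never between -1 and 1) and a p-value per gene, and the authors' list of lamina-associated domains gives intervals. Because the unit was log2 and not counts, limma 3.58.1 (R 4.3.3, lmFit and eBayes with trend) was fitted, with a term for group alone, to genes that exceeded 0 log2 CPM in 3 or more of the 6 libraries; tests were two-sided and p-values were adjusted by Benjamini-Hochberg over 11033 genes at 0.05. The fit was tested on simulated data. Ratios were tested by exact permutation. The members, the lists and the rule for named genes (the lowest and highest fold change per class, isoform pairs, uncalled genes, and up to 3 genes per list with every gene called against its list) were chosen with earlier results of these data known. Complex I genes and others were matched by symbol or gene ID. Promoters are RefSeq's. Replicates of one group differed beyond counting noise (chi-square per degree of freedom 4.94 to 36.7), so no library was a copy of another. Intervals cover the spread between libraries only. Alternatives were other scalings, filters, pseudocounts, weights, the block and leaving out each library. A floor of 3 reads was 0.230 to 0.447 CPM per library.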

Additional observations from a re-analysis of the deposited data

How the results depend on the processing

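Scaling decided most. Library totals, and totals without mitochondrial genes, gave counts for all genes higher of 802 and 1151 and for all genes lower of 6892 and 6253, 4 and 2 of the 50 lower, and member medians of 0.35 and 0.52; quantile normalization gave 0.45. Lists under totals, with totals without mitochondrial genes second where both moved: assembly factors 5 and 6 higher, 10 and 6 lower, median -0.11 under totals; ATP synthase inhibitor list 0 higher under totals and 1 lower under both and under quantile normalization; coenzyme Q 3 higher under totals, 3 and 2 lower; accessory genes 2 and 3 higher, and 3 under quantile normalization. Quantile normalization left 1 mitochondrially encoded partner higher and 1 lower, and ratio differences of 0.90 (Cox6a2/Cox6a1), 0.38 (Cox8b/Cox8a), 0.60 (Atp5g1/Atp5g3) and 0.51 (Atp5g2/Atp5g3). Signs turned for Atp5b (-0.19), Atp5d (-0.016) and Cox6a2 (-0.014) under quantile normalization; Sdhaf3 under median centring (0.10), quantile normalization (0.13) and without null replicate 2 (0.028; other omissions down to -0.16); and Cox8a (-0.31 and -0.15) and Uqcc3 (-0.29 and -0.12) under both totals. Uqcc2 turned under both totals (-0.62 and -0.45), array weights (-0.083) and without null replicate 1 (-0.16) or shDesmin replicate 2 (-0.022), with up to 0.28 without others. Atpif1 turned under quantile normalization (-0.54), both totals (-0.66 and -0.50), array weights (-0.16), and without null replicate 1 (-0.18) or shDesmin replicate 2 (-0.055), with up to 0.17 without others. The causes were not tested, except that scaling by totals shifts all genes together by construction.

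Leaving out 1 library gave 44 to 46 of the 50 higher, and medians of 0.94 to 1.17. Deviations of same-numbered RNA replicates correlated weakly and with mixed sign (r = 0.127, -0.072 and -0.174). Such values cannot show whether same-numbered libraries shared an animal or a preparation. With the replicate block in limma 46 of the 50 were higher and 1 lower. Cox7a2l2 was then no longer called (adjusted p = 0.065) and Uqcc3 was (0.038), and outside the 50 Coa7 was no longer called (0.053). The authors' deposited table called 45 higher. The precision is set by 3 libraries per group and, for Sdhaf3, Sdhaf4, Uqcc3 and Cox7a2l2, by reads of 202 or fewer a library.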
